A study of Mus musculus with 9 samples.

Results

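The genes described here are 10 that encode secreted matrix proteins or proteins that remodel the matrix: Spp1, Tnc, Olfml3, Angptl2, Plau, Plaur, Timp1, Timp2, Mmp12 and Mmp14. They were found by gene name in a table of 20627 features and each had 1 row. The set was chosen by a rule that followed the measured fold changes of the series: it was put together with the values of all 3 comparisons in view. The levels and fold changes of these 10 genes are therefore given as a description, with their errors and without p-values.

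The series holds 9 RNA libraries of RAW264.7, a macrophage-like mouse line that was transformed with the Abelson leukemia virus. The HG-SIG group (3 libraries) received 35 mmol/l glucose together with sitagliptin phosphate for 6 h, and the HG group (3 libraries) received 35 mmol/l glucose for 6 h. The NC group (3 libraries) was the control, for which the sources used here give neither a glucose concentration nor a time. Sitagliptin is a diabetes drug that blocks dipeptidyl peptidase 4, and its dose is likewise not given in the sources used here. No group held sitagliptin without added glucose or an osmotic control, so the libraries give sitagliptin only on top of 35 mmol/l glucose, and in a single cell line.

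The labelled cell type was checked against marker genes. All 12 macrophage markers were in the table, and their summed level was 5381 to 5487 CPM (read counts set to a common library total, here scaled by the trimmed mean of M-values) in HG-SIG, 10246 to 11041 CPM in HG and 11391 to 11842 CPM in NC, with Lyz2 as the most abundant. Of the 11 tested macrophage markers, 10 were called lower in HG-SIG than in HG and 10 were called lower in HG-SIG than in NC. In HG against NC, 5 were called lower and 2 higher. Of all tested genes, 26.8% were called lower in HG-SIG against HG and 28.7% in HG-SIG against NC. In HG against NC, 15.2% of all tested genes were called lower and 14.3% higher. The summed fibroblast markers (8 of 10 in the table) reached 0.379 to 0.450 CPM in HG-SIG, 0.314 to 0.704 CPM in HG and 0.598 to 1.14 CPM in NC. Endothelial markers (5 of 6 in the table) reached 0.835 to 1.03 CPM in HG-SIG, 0.661 to 0.924 CPM in HG and 0.937 to 1.39 CPM in NC. Epithelial markers (3 of 6) stayed at or under 0.0669 CPM and lymphocyte markers (5 of 8) at or under 0.157 CPM in every library. The 6 osteoclast markers, led by Dcstamp, summed to 22.6 to 25.3 CPM in HG-SIG, 47.1 to 53.4 CPM in HG and 88.4 to 92.6 CPM in NC. Of the 5 tested, 5 were called lower in HG-SIG against NC, 4 in HG-SIG against HG and 3 in HG against NC, and 0 higher. Acp5 averaged 14.8 CPM in HG and 14.3 CPM in NC, and Ctsk 13.2 CPM in both. Most of the tested macrophage and osteoclast markers were thus lower in HG-SIG, as were several of the 10 genes. The part of these markers in the values below was not tested. In bulk RNA, fewer cells of a type and less RNA per cell cannot be told apart.

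Library totals ranged from 23285821 to 31571578 counts, so that 3 counts stood for 0.0950 to 0.129 CPM. The third principal component of log2 CPM, which held 7.37% of the variance, set HG replicate 3 apart from the other HG libraries. A gene was called at an adjusted p under 0.05 in edgeR's quasi-likelihood test over 13311 genes. Scaling by library size alone moved the median log2 fold change of all genes by 0.19 in HG-SIG against NC, 0.16 in HG-SIG against HG and 0.03 in HG against NC. It also moved the share of calls that were higher to 76.2% in HG-SIG against NC, 76.9% in HG-SIG against HG and 58.9% in HG against NC, where the trimmed-mean scaling gave 51.0%, 48.9% and 48.4% in the same order.

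Matricellular proteins are secreted into the matrix, where they bind integrins and other receptors and act more as signals than as scaffold; osteopontin and tenascin-C are the best known of them in macrophages. Matrix is cleared by proteases that work at the cell surface. Urokinase, held by its receptor, turns plasminogen into plasmin, plasmin and membrane-bound metalloproteinases activate further metalloproteinases, and tissue inhibitors of metalloproteinases (TIMPs) hold these enzymes in check. Activated macrophages make members of all these classes.

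The 250 bases before the annotated start, from RefSeq on GRCm38.p6, are shown for 4 of the genes: Plaur and Mmp12 because they hold an AP-1 match, Spp1 because it was the most abundant of the 10 and Tnc because it had the lowest ratio of HG-SIG to NC. Each runs 5′ to 3′ on the strand of the gene, and capitals mark a match to the AP-1 motif TGANTCA. The Plaur window is chr7:24462233-24462482 (plus strand), the Mmp12 window is chr9:7347124-7347373 (plus strand), the Spp1 window is chr5:104434861-104435110 (plus strand) and the Tnc window is chr4:64047016-64047265 (minus strand).
Plaur: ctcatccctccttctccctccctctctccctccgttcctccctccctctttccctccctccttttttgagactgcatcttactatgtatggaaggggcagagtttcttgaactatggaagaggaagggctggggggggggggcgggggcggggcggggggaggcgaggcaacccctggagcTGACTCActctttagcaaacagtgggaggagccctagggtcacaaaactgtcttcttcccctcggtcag
Mmp12: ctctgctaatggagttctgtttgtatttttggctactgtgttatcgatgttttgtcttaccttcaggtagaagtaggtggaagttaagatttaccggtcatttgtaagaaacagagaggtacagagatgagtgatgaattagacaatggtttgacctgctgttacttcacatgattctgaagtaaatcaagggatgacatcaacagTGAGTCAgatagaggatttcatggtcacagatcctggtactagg
Spp1: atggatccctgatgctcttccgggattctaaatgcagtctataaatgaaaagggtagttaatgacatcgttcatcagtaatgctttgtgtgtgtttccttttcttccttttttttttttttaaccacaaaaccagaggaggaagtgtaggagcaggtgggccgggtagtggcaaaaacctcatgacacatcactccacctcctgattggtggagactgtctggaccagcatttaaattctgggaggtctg
Tnc: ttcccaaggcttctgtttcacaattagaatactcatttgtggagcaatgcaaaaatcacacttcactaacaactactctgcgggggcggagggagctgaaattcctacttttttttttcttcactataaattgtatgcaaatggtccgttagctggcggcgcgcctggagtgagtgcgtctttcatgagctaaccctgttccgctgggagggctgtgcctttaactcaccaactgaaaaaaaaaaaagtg

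The table of promoters held 12 windows for 9 of the genes, and Plau was not matched. The AP-1 motif, searched on both strands, stood in 2 of the 12 windows and in 6.75% of all 32851 windows of the same length. In Plaur the match was TGACTCA, 69 to 63 bases before the start, and in Mmp12 it was TGAGTCA, 44 to 38 bases before the start. An NF-kB motif, by its name alone, matched in the other Mmp12 window, 129 to 120 bases before its start, against 7.25% of all windows. The cyclic AMP response element TGACGTCA matched in 0 member windows and in 1.55% of all windows, the ETS motif CCGGAAGT in 0 and in 2.88%, and the SRF CArG box in 0 and in 1.47%. These are matches of letters only. The Mmp12 window with the AP-1 match lies inside the gene, whose annotated span begins at 7344381. Whether any match bears on the values that follow was not tested.

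Spp1 encodes osteopontin, a secreted phosphoprotein that binds integrins and CD44. The gene lies on chromosome 5 (104435118 to 104441050, plus strand, mm10). Spp1 was at 1348, 1363 and 1309 CPM in HG-SIG, at 2834, 2829 and 2833 CPM in HG and at 6735, 6242 and 6398 CPM in NC. The 3 groups did not overlap, and the HG libraries lay close to each other. The log2 fold change was -2.27 ± 0.038 (SE) in HG-SIG against NC, -1.08 ± 0.037 in HG-SIG against HG and -1.19 ± 0.037 in HG against NC, so that the steps were of similar size on the log2 scale. The share of all counts taken by Spp1 averaged 0.145% in HG-SIG, 0.275% in HG and 0.614% in NC. Of the exonic bases of Spp1, 18.8% overlap Gm42793 on the same strand, whose row is not in the table used here.

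Tnc encodes tenascin-C, a large glycoprotein of the matrix that is known to activate TLR4 on macrophages. The gene is on chromosome 4 (63959785 to 64047015, minus strand), and was at 5.52, 5.52 and 5.01 CPM in HG-SIG, at 32.2, 32.5 and 37.9 CPM in HG and at 90.2, 87.5 and 102 CPM in NC. The groups did not overlap, and the HG-SIG mean was 5.75% of the NC mean while the HG mean was 36.7% of it. On the log2 scale the fold change was -4.12 ± 0.086 (SE) in HG-SIG against NC, -2.67 ± 0.093 in HG-SIG against HG and -1.45 ± 0.069 in HG against NC. A gene on the other strand, 8030451A03Rik, overlaps 2.27% of the exonic bases of Tnc and had 0 counts in HG-SIG, 11 in HG and 39 in NC over 3 libraries each.

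Angptl2 encodes a secreted angiopoietin-like protein that signals through integrins and, in mice, through Pirb. It maps to chromosome 2 (33216069 to 33247717, plus strand), and was at 7.23, 6.26 and 6.77 CPM in HG-SIG, at 67.0, 61.9 and 72.5 CPM in HG and at 108, 95.9 and 118 CPM in NC. The groups did not overlap, and HG-SIG stood far below both others. Its log2 fold change was -3.99 ± 0.094 (SE) in HG-SIG against NC, -3.31 ± 0.096 in HG-SIG against HG and -0.68 ± 0.073 in HG against NC.

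Olfml3 encodes a secreted glycoprotein of the olfactomedin family, known as a microglial transcript in the brain. Olfml3 sits on chromosome 3 (103722222 to 103738001, minus strand). Its level was 1.89, 1.57 and 2.12 CPM in HG-SIG, at 17.7, 14.5 and 17.4 CPM in HG and at 12.9, 12.8 and 14.1 CPM in NC. It alone of the 10 was called higher in HG than in NC, with a log2 fold change of 0.31 ± 0.090 (SE), and the HG and NC libraries came within 1 CPM of each other. The fold change was -3.14 ± 0.12 in HG-SIG against HG and -2.83 ± 0.12 in HG-SIG against NC, and here the libraries lay far apart. Without HG replicate 3 the value in HG against NC was 0.27 and was not called, and it was likewise not called without HG replicate 1 (0.26), NC replicate 1 (0.29) or NC replicate 2 (0.29).

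**Figure D1:**
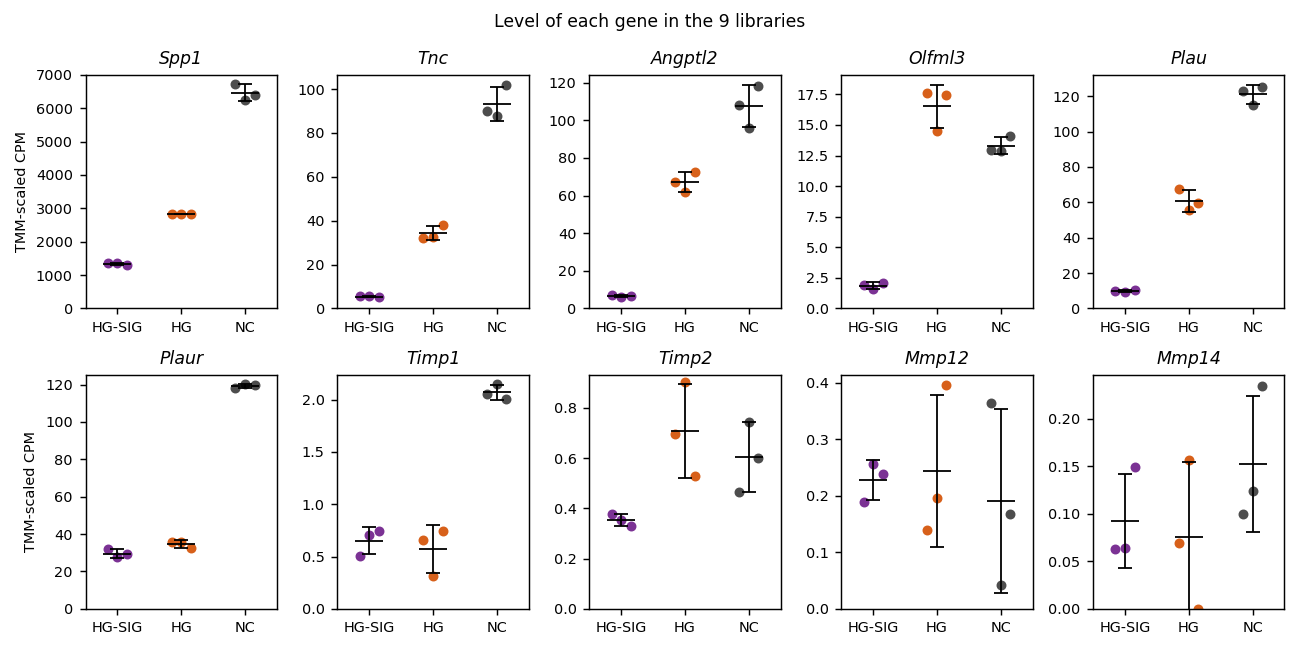
Level of each of the 10 genes in every library, in CPM scaled by the trimmed mean of M-values, for HG-SIG, HG and NC from left to right; points are libraries and the bars mark the mean and SD of 3, clipped at 0 where they would run below it. Each panel has its own axis. Spp1, Tnc, Angptl2 and Plau were lowest in HG-SIG and highest in NC, Olfml3 was highest in HG, and the libraries of the 3 groups overlapped for Mmp12 and Mmp14.

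Plau encodes urokinase, the serine protease that turns plasminogen into plasmin. Its locus is on chromosome 14 (20836660 to 20843385, plus strand). Plau was at 9.63, 9.51 and 10.5 CPM in HG-SIG, at 67.4, 55.5 and 59.6 CPM in HG and at 123, 115 and 125 CPM in NC. The groups did not overlap, and the log2 fold change was -3.61 ± 0.075 (SE) in HG-SIG against NC, -2.62 ± 0.078 in HG-SIG against HG and -0.99 ± 0.062 in HG against NC.

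Plaur encodes the urokinase receptor, a protein that holds urokinase on the outer face of the membrane through a lipid anchor. It lies on chromosome 7 (24462484 to 24475968, plus strand). Plaur was at 31.9, 27.7 and 29.1 CPM in HG-SIG, at 36.0, 36.0 and 32.4 CPM in HG and at 118, 120 and 120 CPM in NC. Unlike its ligand Plau, Plaur was only slightly lower in HG-SIG than in HG, without overlap, and NC stood far above both. The log2 fold change was -2.01 ± 0.053 (SE) in HG-SIG against NC, -0.24 ± 0.057 in HG-SIG against HG and -1.78 ± 0.053 in HG against NC. The difference between HG-SIG and HG was not called with scaling by library size alone, which gave -0.08, or with limma on log2(TPM + 1), which gave -0.03. Expressed per length, as TPM (counts set to exon length and to a common total), the ratio of Plau to Plaur was 0.334, 0.380 and 0.400 in HG-SIG, 2.07, 1.70 and 2.03 in HG and 1.15, 1.06 and 1.16 in NC. On the exon lengths used, the ligand stood above the receptor in HG and NC and below it in HG-SIG. In NC that order rests on those lengths, 2367 bases for Plau and 2617 for Plaur, pooled over all annotated transcripts. Before setting to length, Plau averaged 121 CPM and Plaur 119 CPM in NC, with overlapping libraries.

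Timp1 encodes a secreted inhibitor of most metalloproteinases. Timp1 is found on chromosome X (20870166 to 20874735, plus strand). It had few counts, with 16, 22 and 25 in HG-SIG, 19, 8 and 17 in HG and 62, 52 and 60 in NC. These counts correspond to 0.505, 0.707 and 0.746 CPM in HG-SIG, 0.661, 0.314 and 0.748 CPM in HG and 2.06, 2.15 and 2.01 CPM in NC. NC stood above both other groups, which overlapped each other. The log2 fold change was -1.66 ± 0.26 (SE) in HG-SIG against NC and -1.85 ± 0.27 in HG against NC. In HG-SIG against HG it was 0.19 ± 0.31 and was not called, and it turned to -0.10 without HG replicate 2, the library with 8 counts.

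Timp2 encodes the inhibitor that, bound to MMP14 at the membrane, also takes part in the activation of pro-MMP2. The locus is on chromosome 11 (118301069 to 118355740, minus strand). Timp2 had 12, 11 and 11 counts in HG-SIG, 20, 23 and 12 in HG and 14, 18 and 18 in NC. In CPM it was at 0.379, 0.353 and 0.328 in HG-SIG, at 0.696, 0.902 and 0.528 in HG and at 0.465, 0.743 and 0.602 in NC. HG-SIG lay below both other groups without overlap, while HG and NC overlapped. The fold change (log2) was -1.0 ± 0.31 (SE) in HG-SIG against HG and was called. It was -0.75 ± 0.32 in HG-SIG against NC and 0.25 ± 0.29 in HG against NC, neither of which was called. The call in HG-SIG against HG was lost without HG-SIG replicate 3 (-0.95) or HG replicate 2 (-0.80) and with DESeq2 (-1.02), and HG-SIG against NC was called without NC replicate 1 (-0.91).

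Mmp12 encodes macrophage elastase, which cleaves elastin. Mmp12 maps to chromosome 9 (7344381 to 7369499, plus strand). It had 6, 8 and 8 counts in HG-SIG, 4, 5 and 9 in HG and 11, 1 and 5 in NC, and it did not pass the filter on low counts. The ratio of the summed levels, with its exact 95% counting interval, was 1.13 (0.574 to 2.27) in HG-SIG against NC, 0.976 (0.50 to 1.93) in HG-SIG against HG and 1.16 (0.564 to 2.39) in HG against NC. A difference was not detectable at this depth.

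Mmp14 encodes a membrane-bound metalloproteinase that cuts collagen and activates pro-MMP2. It lies on chromosome 14 (54431612 to 54445364, plus strand). Mmp14 had 2, 2 and 5 counts in HG-SIG, 2, 4 and 0 in HG and 3, 3 and 7 in NC, and it also stayed below the filter. The ratio was 0.605 (0.228 to 1.53) in HG-SIG against NC, 1.20 (0.381 to 4.09) in HG-SIG against HG and 0.505 (0.158 to 1.43) in HG against NC. These intervals cover counting error only, and a difference was not detectable at this depth.

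Of the 10 genes, 8 passed the filter. In HG-SIG against NC, 7 of the 8 genes were called lower and 0 higher, where 28.7% of all genes were called lower and 29.9% higher, and all 7 were lower by over 1 on the log2 scale, where 5.6% of all genes were. In HG-SIG against HG, 7 were called lower and 0 higher, where 26.8% of all genes were called lower and 25.7% higher, and 6 of these were lower by over 1, where 3.14% of all genes were. In HG against NC, 6 were called lower and 1 higher, where 15.2% of all genes were called lower and 14.3% higher, and 4 were lower by over 1, where 2.22% of all genes were. Counted over all 10 genes, the libraries of HG-SIG lay wholly below those of NC for 8 and wholly above for 0, where 31.7% of all tested genes lay below and 34.2% above. HG-SIG lay wholly below HG for 7 and above for 0, where 28.8% of all tested genes lay below and 29.9% above, and HG lay wholly below NC for 6 and above for 1, where 20.8% lay below and 20.8% above. Because the genes were chosen with these contrasts in view, nothing is read from their counts. By fold change, Angptl2, Olfml3, Tnc and Plau stood at places 20, 23, 36 and 39 from the lowest of 13311 genes in HG-SIG against HG, and Plaur stood at place 2996. In HG against NC the order differed, with Timp1 at place 64, Plaur at 77, Tnc at 149, Spp1 at 252, Plau at 355 and Angptl2 at 671.

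**Figure D2:**
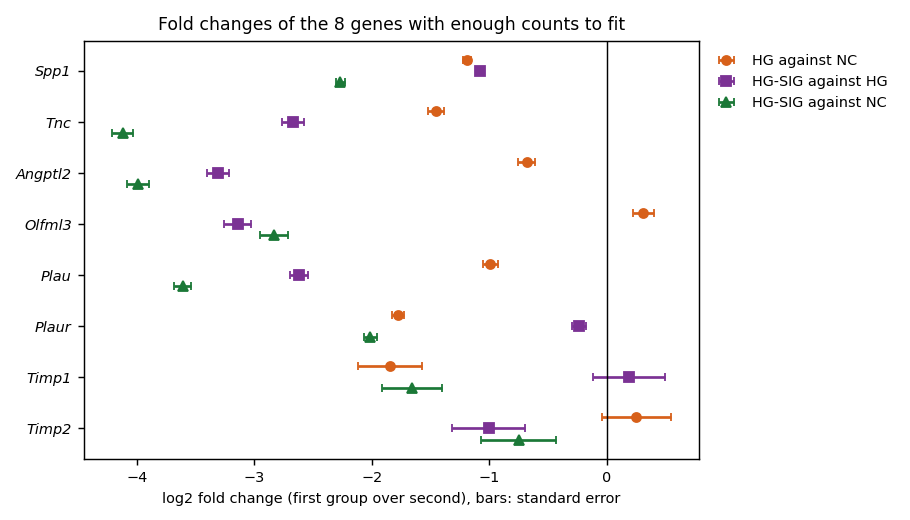
Log2 fold change with its SE of the 8 genes that passed the filter, for the 3 comparisons. Angptl2, Olfml3, Tnc and Plau were lower by over 2 on this scale in HG-SIG than in HG, whereas Plaur (-0.24) and Timp1 (0.19) lay close to 0 in that comparison and were lower than NC in both HG-SIG and HG.

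**Figure D3:**
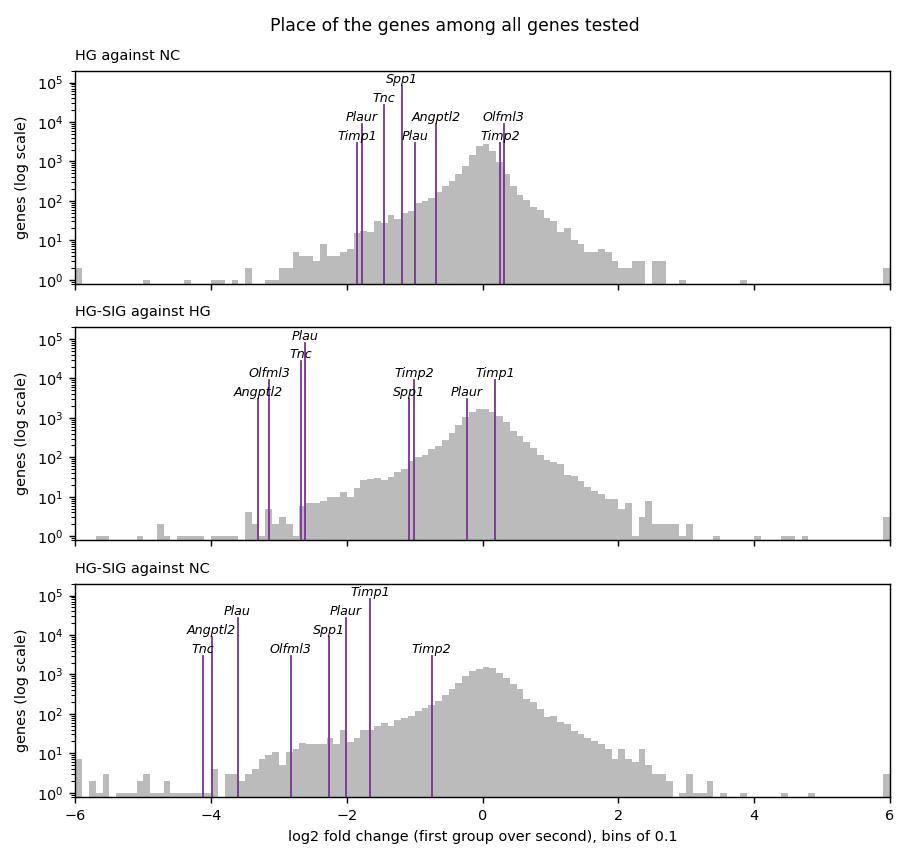
Histograms of the log2 fold changes of all 13311 tested genes in the 3 comparisons, with lines at the values of the 8 tested members; the outermost bins also hold genes beyond the axis. Most genes lie close to 0, and Tnc at -4.12 is the lowest of the members in HG-SIG against NC.

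Set per length, Spp1 led in every group, at 3060 ± 29.7 TPM in HG-SIG, 5612 ± 125 TPM in HG and 12517 ± 528 TPM in NC (SD, n = 3 each). It made up 97.8% of the summed TPM of the 10 genes in HG-SIG, 96.8% in HG and 96.8% in NC. The other 9 genes together reached 69.3 ± 3.67 TPM in HG-SIG, 188 ± 12.6 TPM in HG and 417 ± 15.6 TPM in NC. TPM do not carry the trimmed-mean scaling of the CPM, so differences between groups are not the same on the 2 scales. Plaur, for example, averaged 42.5 TPM in HG-SIG and 43.4 TPM in HG, against 29.6 and 34.8 CPM. In NC the order after Spp1 was Plau (163 TPM), Plaur (146 TPM), Angptl2 (54.6 TPM) and Tnc (38.3 TPM), all apart from each other. Timp1 (7.45 TPM) and Olfml3 (6.89 TPM) followed with overlapping libraries, then Timp2 (0.494 TPM), and last Mmp12 and Mmp14, which overlapped. In HG the order was Spp1, Plau (83.9 TPM), Plaur (43.4 TPM), Angptl2 (34.9 TPM), Tnc (14.4 TPM), Olfml3 (8.76 TPM), Timp1 (2.12 TPM) and Timp2 (0.592 TPM). In HG-SIG the receptor Plaur (42.5 TPM) came next after Spp1, ahead of Plau (15.7 TPM) and Angptl2 (4.04 TPM). Timp1 (2.77 TPM) and Tnc (2.59 TPM) overlapped there, followed by Olfml3 (1.14 TPM). The rows of the deposited table carry transcript numbers, and for Plaur, Olfml3 and Mmp14 the transcript named is annotated as a retained intron. For Plau and Mmp12 it is annotated as a target of nonsense-mediated decay rather than as protein-coding. Rows named after a retained-intron transcript held 38.1% of all counts. The rows were read here as gene counts, which the sources used here do not state. Levels per length rest on that reading and on the exon lengths used.

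The genes with the most similar profile were found by the Pearson correlation of log2 CPM over the 9 libraries among 9381 genes. These 9 points fall into 3 groups, so the values mostly describe the order of the group means. For Tnc they were Abr (r = 0.999) and Myo1e (r = 0.999), for Angptl2 Dab2 (r = 1.00) and Irf5 (r = 0.999), and for Plau Mov10 (r = 0.999) and Il13ra2 (r = 0.999). For Olfml3 they were Myo1f (r = 0.998) and Fads1 (r = 0.997), and for Spp1 Lilr4b (r = 0.999) and Evi2a (r = 0.998). Plaur was most like Tnip1 (r = 0.997) and the syndecan Sdc4 (r = 0.996). The low-count genes gave lower values, with Slc10a7 (r = 0.981) and Slc7a8 (r = 0.979) for Timp1 and Rpl8 (r = 0.981) and Rps18-ps6 (r = 0.981) for Timp2. Il13ra2 averaged 0.424 CPM in HG-SIG, 5.56 CPM in HG and 16.9 CPM in NC, and Lilr4b averaged 4.56 CPM in HG-SIG, 20.9 CPM in HG and 142 CPM in NC. The correlation does not measure the size of a change, and other similar genes changed far less. Slc10a7 averaged 32.7 CPM in HG-SIG, 31.8 CPM in HG and 36.1 CPM in NC. Rpl8 averaged 862, 1038 and 1019 CPM and Irf5 115, 192 and 214 CPM in the same order.

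The other genes of the matrix system were taken from 6 lists. Their calls stand beside the shares of all 13311 genes called. These were 28.7% lower and 29.9% higher in HG-SIG against NC, and 26.8% lower and 25.7% higher in HG-SIG against HG. In HG against NC they were 15.2% lower and 14.3% higher. For the genes named from these lists, adjusted p-values come from edgeR's quasi-likelihood test with Benjamini-Hochberg adjustment over all 13311 genes. Many list genes had too few counts to be tested, such as Fn1, the gene of fibronectin, with 17 counts in HG-SIG, 9 in HG and 20 in NC. Others had no row at all in the deposited table. It held 43 of 54 glycoprotein genes, 34 of 39 collagen genes and 26 of 41 metalloproteinase genes. Of the inhibitor, plasminogen and receptor lists it held 20 of 25, 19 of 23 and 16 of 18 genes.

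Of the matrix glycoproteins and proteoglycans, 18 of 54 listed genes were tested. The calls in HG-SIG against NC were 5 higher and 8 lower (median log2 fold change 0.04, all genes 0.02), 2 higher and 8 lower in HG-SIG against HG (median -0.24, all genes 0.01), and 4 higher and 3 lower in HG against NC (median 0.01, all genes 0.00). The balance depended on the scaling: in HG-SIG against HG it was 4 higher and 5 lower (median -0.08) by library size alone and 6 higher and 4 lower (median -0.03) with limma on log2(TPM + 1), and in HG-SIG against NC it was 6 higher and 6 lower with either. Lamc1, a laminin chain, averaged 142 ± 8.02 CPM in HG-SIG, 248 ± 19.1 CPM in HG and 362 ± 27.5 CPM in NC (SD, n = 3 each). Its log2 fold change was -0.80 ± 0.065 (SE, edgeR adjusted p = 6.7e-07) in HG-SIG against HG and -0.55 ± 0.064 (edgeR adjusted p = 3.3e-05) in HG against NC. Lgals3, the gene of galectin-3, fell by 0.91 on the log2 scale in HG-SIG against HG (edgeR adjusted p = 1.4e-07). Srgn, the gene of the granule proteoglycan serglycin, fell by 0.77 in HG against NC (edgeR adjusted p = 4.5e-07). Like Olfml3, Gpnmb was higher in HG than in NC (0.24 on the log2 scale, edgeR adjusted p = 0.0013) and fell by 0.82 in HG-SIG against HG (edgeR adjusted p = 1.5e-08). Angptl4 went the other way from Angptl2 against NC. It was higher by 0.63 in HG (edgeR adjusted p = 7.9e-05) and by 0.59 in HG-SIG (edgeR adjusted p = 3.7e-05). In HG-SIG against HG, Angptl4 was at -0.04 and was not called.

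Of the collagens and the enzymes that process them, 15 of 39 listed genes were tested. Called in HG-SIG against NC were 1 higher and 6 lower (median -0.43), in HG-SIG against HG 1 higher and 7 lower (median -0.16), and in HG against NC 2 higher and 4 lower (median -0.11). In HG-SIG against HG, scaling by library size alone gave 4 higher and 6 lower (median 0.01) and limma on log2(TPM + 1) gave 4 higher and 4 lower (median 0.03), and in HG-SIG against NC they gave 3 higher and 5 lower and 4 higher and 5 lower. Col27a1, a fibrillar collagen, averaged 3.24 ± 0.306 CPM in HG-SIG, 6.61 ± 0.405 CPM in HG and 3.52 ± 0.814 CPM in NC (SD, n = 3 each), and was called in HG-SIG against HG (edgeR adjusted p = 9.1e-05) and in HG against NC (edgeR adjusted p = 5.0e-04). Col18a1, whose fragment is endostatin, averaged 12.6 ± 1.29 CPM in HG-SIG, 23.1 ± 1.52 CPM in HG and 24.3 ± 2.40 CPM in NC. P4hb, a subunit of prolyl 4-hydroxylase, fell by 0.36 in HG-SIG against HG (edgeR adjusted p = 1.2e-05) with a value of -0.25 in HG against NC (edgeR adjusted p = 4.3e-04). P3h1 was the 1 gene of this list called higher in HG-SIG against HG, by 0.50 (edgeR adjusted p = 7.5e-05). It averaged 24.2 ± 1.54 CPM in HG-SIG and 17.1 ± 1.35 CPM in HG.

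Of the other metalloproteinases, 12 of 41 listed genes were tested. The test in HG-SIG against NC called 1 higher and 6 lower (median -0.33), in HG-SIG against HG 1 higher and 7 lower (median -0.42), and in HG against NC 2 higher and 3 lower (median -0.16). By library size alone and with limma, the calls were 2 higher and 4 lower in HG-SIG against HG, and 2 higher and 4 or 5 lower in HG-SIG against NC. Mmp9, the gene of gelatinase B, averaged 0.135 ± 0.0126 CPM in HG-SIG, 0.267 ± 0.112 CPM in HG and 2.13 ± 0.278 CPM in NC (SD, n = 3 each). Its log2 fold change was -3.00 ± 0.29 (SE) in HG against NC. It had 13 counts in HG-SIG, 20 in HG and 178 in NC over 3 libraries each. Mmp9 thus passed the filter through NC, the group where it was high, and no p-value is given for it. Adam8, a membrane-bound metalloproteinase of leukocytes, averaged 140 ± 7.89 CPM in HG-SIG, 527 ± 15.0 CPM in HG and 681 ± 42.6 CPM in NC, and fell by 1.92 in HG-SIG against HG (edgeR adjusted p = 4.6e-11). Adam17, which sheds tumour necrosis factor from the cell surface, fell by 0.60 in HG-SIG against HG (edgeR adjusted p = 1.1e-07) with a value of -0.57 in HG against NC (edgeR adjusted p = 3.0e-07). Adam10 was higher by 0.30 in HG against NC (edgeR adjusted p = 8.0e-05). In HG-SIG against HG, Adam10 and Adam15 were called lower, and both calls were lost with scaling by library size alone (edgeR adjusted p = 0.060 and 0.33) and with limma on log2(TPM + 1) (adjusted p = 0.42 and 0.93).

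Of the other protease inhibitors and activators of metalloproteinases, 13 of 25 listed genes were tested. Calls in HG-SIG against NC were 1 higher and 10 lower (median -0.59), in HG-SIG against HG 2 higher and 9 lower (median -0.69), and in HG against NC 1 higher and 7 lower (median -0.15). By library size alone and with limma on TPM, the calls were 4 higher and 8 lower in HG-SIG against HG, and 2 higher and 7 or 6 lower in HG-SIG against NC. Cst3, the gene of the cysteine protease inhibitor cystatin C, was higher by 0.39 in HG against NC (edgeR adjusted p = 2.4e-04) and fell by 0.69 in HG-SIG against HG (edgeR adjusted p = 9.7e-07). Serpinb8 fell by 1.07 in HG-SIG against HG (edgeR adjusted p = 6.3e-10).

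Of the genes of plasminogen activation and surface proteolysis, 10 of 23 listed were tested. Among them, 2 were called higher in HG-SIG against NC and 6 lower (median -0.60), in HG-SIG against HG 3 higher and 6 lower (median -0.38), and in HG against NC 0 higher and 4 lower (median -0.11). Anxa2, a plasminogen-binding annexin, averaged 344 ± 15.0 CPM in HG-SIG, 542 ± 27.7 CPM in HG and 787 ± 17.1 CPM in NC (SD, n = 3 each), and was called in all 3 comparisons (edgeR adjusted p = 2.0e-10 in HG-SIG against NC). Lrp1, an endocytic receptor that clears proteases from the cell surface, averaged 489 ± 51.7 CPM in HG-SIG and 959 ± 145 CPM in HG (edgeR adjusted p = 6.5e-06). Procr, the receptor of protein C, fell by 0.90 in HG against NC (edgeR adjusted p = 0.0017). Eno1, an enolase that can bind plasminogen at the surface, fell by 0.50 in HG-SIG against HG (edgeR adjusted p = 5.7e-06), although its reads may be shared with near-identical copies.

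Of the cell-surface receptors for the 10 proteins, 14 of 18 listed genes were tested. Of these, HG-SIG against NC had 1 called higher and 12 lower (median -0.85), in HG-SIG against HG 0 higher and 13 lower (median -0.57), and in HG against NC 3 higher and 8 lower (median -0.30). By library size alone and with limma, 11 and 9 receptors were called lower in HG-SIG against HG and 11 and 10 in HG-SIG against NC, with at most 1 higher. Cd44, a receptor of osteopontin, averaged 172 ± 7.41 CPM in HG-SIG, 283 ± 20.9 CPM in HG and 545 ± 34.0 CPM in NC (SD, n = 3 each), and was called in all 3 comparisons (edgeR adjusted p = 1.2e-10 in HG-SIG against NC). Itga5, an integrin chain, fell by 0.87 in HG-SIG against HG (edgeR adjusted p = 4.3e-06) with a value of -1.22 in HG against NC (edgeR adjusted p = 2.9e-07). Sdc4, the syndecan whose profile was like that of Plaur, averaged 55.1 ± 4.20 CPM in HG-SIG, 61.0 ± 2.72 CPM in HG and 152 ± 4.95 CPM in NC. Itga4, an osteopontin-binding integrin chain, fell by 1.41 in HG-SIG against HG (edgeR adjusted p = 4.0e-08). Itgb5 was higher by 0.61 in HG against NC (edgeR adjusted p = 1.8e-07).

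**Figure D4:**
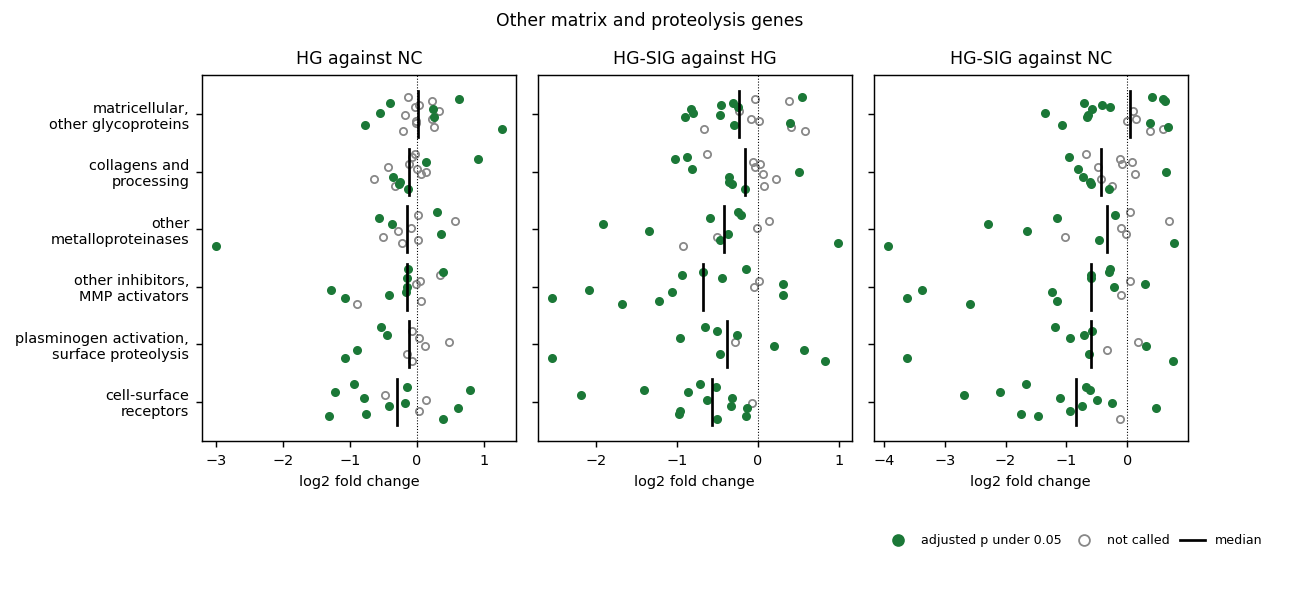
Log2 fold change of every tested gene of the 6 other matrix lists in the 3 comparisons, with genes that passed the test in colour and others in grey, and the median of each list as a line. The receptor list has the lowest median in HG-SIG against NC (-0.85), while the glycoprotein list is near 0 (0.04).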

How the data were processed

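Polyadenylated RNA from 9 libraries was sequenced, per the labels' protocols. The deposited values were counts per gene, for which the submitters' processing notes list RSEM, Bowtie2 2.3.5 and mm10. The sources used here give neither the annotation nor the strand setting. RSEM estimates may have been rounded before deposit, since only whole numbers were found. Groups and replicate numbers came from the sample titles. The labels do not say whether replicates were separate cultures; p-values measure the spread between these libraries only, and that spread may be technical.

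Counts were filtered with filterByExpr (13311 genes), scaled by the trimmed mean of M-values and fitted over all 9 libraries with edgeR 4.0.16 in R 4.3.3 (quasi-likelihood test, Benjamini-Hochberg adjustment). CPM use that scaling and TPM do not. TPM were computed from exon lengths of GENCODE M21 (GRCm38, the assembly of mm10), found for 18564 features. The unannotated loci (1996 features, 5.85% to 6.21% of the counts of a library) stayed in the tests. Alternatives were size factors, library size alone, no filter, DESeq2 1.42.0, limma 3.58.1 on log2(TPM + 1), the 2 groups alone, a replicate block and each library left out. Scripts were tested on simulated counts.

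The members and the lists were chosen with earlier results of these data known. Named are all 10 members, up to 4 called genes per list and comparison by p-value, of which the text describes some, and the 2 most similar genes per tested member; Fn1 was named after its values were seen.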

Additional observations from a re-analysis of the deposited data

How the results depend on the processing

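Of 384 alternative values for the 24 fold changes of the tested members (16 alternatives each), 373 kept direction and call, 9 were no longer called, 1 became called and 1 reversed. The reversed value was Timp1 in HG-SIG against HG, -0.10 without HG replicate 2; with each library left out in turn it ranged from -0.10 to 0.40. No count of genes, members or list genes called, both directions summed, moved by over 1.5 times. Counts by direction did: of all genes in HG-SIG against HG, 3417 were called higher and 3572 lower, against 6093 and 1826 by library size alone and 6534 and 1423 with limma on log2(TPM + 1). In HG-SIG against NC the counts were 3978 and 3823, against 6786 and 2120 and 7035 and 1736. With each library left out in turn, the genes called ranged from 7106 to 8191 in HG-SIG against NC (7801 with all), from 6193 to 7147 in HG-SIG against HG (6989 with all) and from 3062 to 4000 in HG against NC (3927 with all). With the replicate number as a block, 8282, 7563 and 4663 genes were called in these comparisons, and 7 members in each. The deviations of same-numbered libraries were at most weakly correlated (r from -0.003 to 0.099 over the 9 pairs). In HG against NC each library correlated best with its own number (r from 0.031 to 0.061). In 2 of the 3 comparisons not every library did. The numbers were not read as pairs, although more genes were called with them as a block. With limma on log2(TPM + 1), 80.2% of calls were higher in HG-SIG against NC, 82.1% in HG-SIG against HG and 58.3% in HG against NC, and the median of all genes moved by 0.23, 0.20 and 0.03. Depth left the ratios of Mmp12 and Mmp14 known only to within their counting intervals, all of which include 1, and left Timp1 and Timp2 with the widest errors.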

Other observations

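Among the list genes that were not tested for low counts, 13 had 30 or more counts in all. The ratio of their summed levels is given with an exact 95% counting interval. In HG-SIG against HG, that interval lay above 1 for 3 of them and below 1 for 4, and those described here were singled out after their values were seen. The share of all genes with such an interval was not computed. By the replicate test, an unlike measure, 25.7% of all tested genes were called higher and 26.8% lower in that comparison. In HG-SIG against NC these shares were 29.9% and 28.7%. Nothing particular to the 13 genes is read from their counts.

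Mmp17, a metalloproteinase held at the membrane by a lipid anchor, had 10, 13 and 8 counts in HG-SIG, 1, 4 and 3 in HG and 1, 0 and 2 in NC. Its ratio was 3.09 (1.39 to 7.79) in HG-SIG against HG and 9.03 (2.82 to 46.2) in HG-SIG against NC. Adamts4, an aggrecanase, had 7, 6 and 12 counts in HG-SIG, 3, 0 and 2 in HG and 7, 7 and 9 in NC, with a ratio of 3.99 (1.50 to 13.4) in HG-SIG against HG and 0.238 (0.0707 to 0.640) in HG against NC. Emilin1, an elastin-associated glycoprotein, had 43 counts in HG-SIG, 18 in HG and 20 in NC over 3 libraries each, a ratio of 1.91 (1.08 to 3.51) in HG-SIG against HG.

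The 4 that were lower in HG-SIG than in HG were Col4a1, a chain of basement membrane collagen, at 0.282 (0.0910 to 0.749), Fgl2, a fibrinogen-like protein, at 0.359 (0.144 to 0.826), Plat, the gene of tissue plasminogen activator, at 0.383 (0.175 to 0.792), and Ltbp1, which binds latent TGF-beta, at 0.433 (0.202 to 0.884). In HG-SIG against NC the interval lay above 1 for 3 of the 13 genes (Emilin1, Olfml2b and Mmp17) and below 1 for 4 (Tnn, Col4a1, Mmp8 and Plat). These intervals cover counting error only, and no replicate test was made for these genes.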
